A study of Mus musculus with 9 samples.

Results

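A set of 10 genes that write or erase chromatin marks in germinal centre B cells was followed by RNA-seq in B cells of mouse spleen, labelled as pre-GC, which places them before the germinal centre. The 10 genes were taken by name from the deposited tables, and all 10 were among the 12849 genes tested, of 55536 in the count table. They are Ezh2, Ezh1, Suz12 and Eed of Polycomb repressive complex 2 (PRC2), the methyltransferase Kmt2d, the acetyltransferases Crebbp and Ep300, the deacetylase Hdac3, the DNA methyltransferase Dnmt1 and the DNA demethylating enzyme Tet2. There were 4 WT libraries and 5 p52Ki libraries. The latter carry the title p52ki/ki, which denotes homozygous knock-in mice, and p52 is the NF-kB subunit processed from the product of Nfkb2. The sources used here do not give how the knock-in was made, the age of the mice, any immunisation or the sorting gate, nor whether each library is a different mouse. Values listed per library below are in replicate order, WT 1 to 4 and p52Ki 1 to 5. P-values therefore measure the spread between these libraries, which may be partly technical.

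PRC2 places methyl groups on lysine 27 of histone H3, a mark of silenced genes. EZH2 or its relative EZH1 is the catalytic subunit, and SUZ12 and EED are needed for its activity. Germinal centre B cells are known for high EZH2, which holds genes of cell cycle arrest and plasma cell differentiation silent, whereas EZH1 is the form known from resting cells. KMT2D primes enhancers by methylating lysine 4 of histone H3, and CREBBP and EP300 acetylate lysine 27 there. HDAC3, recruited by BCL6 with corepressors, removes that acetylation. DNMT1 copies DNA methylation onto the new strand at replication, and TET2 oxidises methylcytosine. EZH2, KMT2D, CREBBP, EP300 and TET2 are recurrently mutated in lymphomas of B cells.

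Total counts were 7368604 to 7937579 in WT and 4492160 to 6647650 in p52Ki, and 14033 to 14793 genes were detected in WT against 15504 to 16634 in p52Ki. The B cell markers Ms4a1, Cd79a and Cd79b were counted in all 9 libraries, with between 45993 and 74172 counts each over the WT libraries and between 83531 and 86075 over those of p52Ki. The 8 germinal centre markers were counted in every library, also in WT, although the label places the cells before that stage, and summed to 2816 to 3743 CPM (counts scaled to a common library size) in WT and 671 to 1636 CPM in p52Ki. The sum over 6 markers of resting follicular B cells ran the other way, at 592 to 819 CPM in WT and 1307 to 1942 CPM in p52Ki, although 1 of them, Fcer2a, had a lower mean in p52Ki. The summed CPM of 24 S phase genes was 7927 to 9822 in WT and 2917 to 6199 in p52Ki. The 4 plasma cell markers summed to 1436 to 1894 CPM in WT and 674 to 1256 CPM in p52Ki, where Jchain fell (edgeR adjusted p = 0.0116) while Sdc1 averaged 1.21 ± 2.42 and 22.1 ± 11.5 CPM (0.0762). The 5 T cell markers summed to at most 6.04 CPM in WT and 12.9 CPM in p52Ki, 3 neutrophil markers and Pdpn of stromal cells had 0 counts in all 9 libraries, and 4 myeloid markers, mostly Lyz2 and Csf1r, summed to 9.58 to 48.1 CPM in WT and 44.1 to 102 CPM in p52Ki. The part of these shifts in the results on the 10 genes was not tested. The ratios to S phase genes given with Ezh2 and Dnmt1 describe levels beside that list and do not test it either.

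Dnmt1 and Eed fell and Ezh1 rose in p52Ki, while Ezh2, Suz12, Kmt2d, Crebbp, Ep300, Hdac3 and Tet2 did not pass the threshold. That is 3 of 10 genes called, at an adjusted p under 0.05 in edgeR's quasi-likelihood test, beside 8.53% of all genes tested. One of 10 was called higher (background 4.49%) and 2 of 10 lower (background 4.04%). The genotypes did not overlap in 4 genes: Tet2 stood above every WT library, as did 7.3% of all genes tested, and Dnmt1, Eed and Suz12 stood below every WT library, as did 6.53%. With so few genes these shares describe the list and show nothing particular to it. The median log2 fold change of the 10 was -0.01, beside 0.03 over all genes tested. In bulk RNA a change in the share of cells of a type and a change in RNA per cell cannot be told apart. Correcting for GC content and length lowered the median of all genes to -0.20 on the log2 scale and the share of called genes that were higher from 52.6% to 27%, so it is named below where it changed a call or turned the sign of one of the 10 genes.

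**Figure D1:**
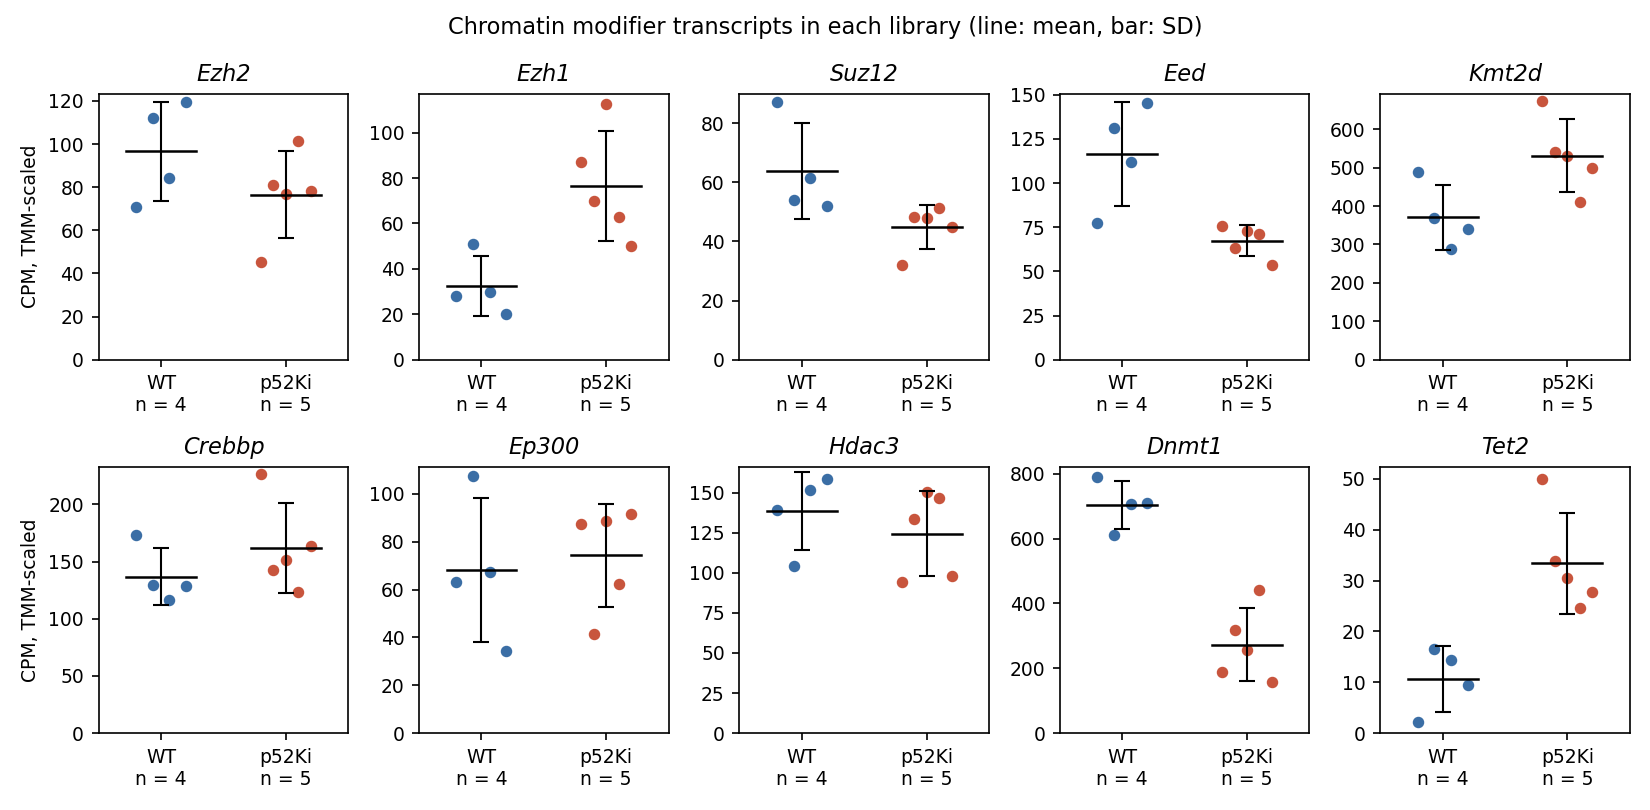
TMM-scaled CPM of the 10 chromatin modifier genes in each of 4 WT and 5 p52Ki libraries, 1 panel per gene with its own axis from 0; points are libraries in replicate order, lines the mean and bars the SD. Dnmt1, Eed and Suz12 lie below, and Tet2 above, every WT library, and the genotypes overlap in the other panels.

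**Figure D2:**
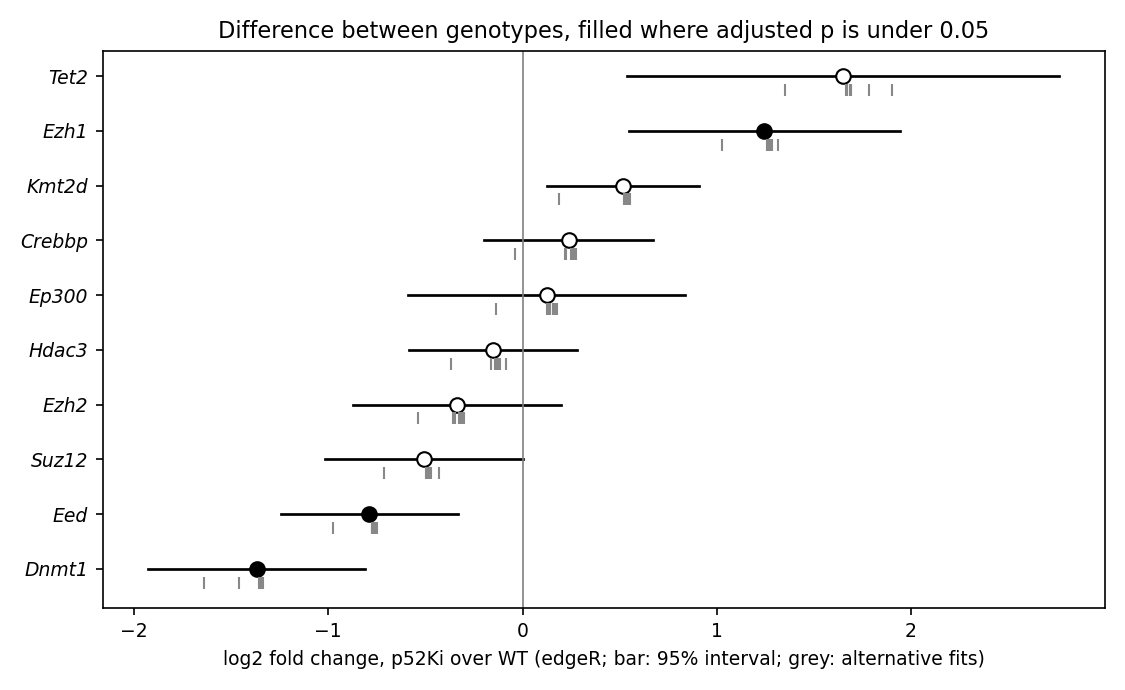
Log2 fold change of p52Ki over WT for each of the 10 genes in edgeR, with its 95% interval; filled circles passed an adjusted p under 0.05, and grey ticks are the values of 8 alternative fits to all 9 libraries. Dnmt1, Eed and Ezh1 are filled, and the tick farthest to the left for each gene is the fit corrected for GC content and length.

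Within PRC2 the balance of the catalytic subunits differed between the genotypes. Ezh1 (chromosome 11, 101191115 to 101226463, minus strand, GRCm38) had 28.2, 51.1, 29.7 and 20.0 CPM in the WT libraries against 87.0, 69.8, 113, 62.7 and 50.2 CPM in those of p52Ki. All p52Ki libraries but replicate 5, which lay just under WT replicate 2, were above all WT libraries. Ezh1 thus rose, from a mean of 32.3 ± 13.2 to one of 76.4 ± 24.2 CPM (SD, n = 4 and 5), with log2 fold change 1.25 ± 0.32 (SE) and edgeR adjusted p = 0.0329. Its call ended when any of WT replicates 1, 3 and 4 or p52Ki replicates 1, 2 and 3 was left out, with edgeR adjusted p of 0.0571 to 0.0831.

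Ezh2 (chromosome 6, 47530139 to 47595341, minus strand) was at 70.6, 112, 84.2 and 120 CPM in WT and at 45.3, 81.0, 76.7, 101 and 78.0 CPM in p52Ki. The genotypes overlapped over most of their range, with p52Ki replicate 1 lowest and WT replicate 4 highest. Its change of -0.34 ± 0.25 on the log2 scale, with a 95% interval of -0.87 to 0.20, did not pass (edgeR adjusted p = 0.488). Within a library, Ezh2 to Ezh1 had a log2 ratio of 1.31, 1.13, 1.49 and 2.56 in WT and -0.94, 0.21, -0.55, 0.69 and 0.63 in p52Ki. Every p52Ki library lay below every WT library, and the means differed by -1.61 (exact two-sided permutation p = 0.00794, the smallest that the splits of 9 libraries can give, adjusted p = 0.0185 over 14 ratios). Per length of exon, Ezh1 made up 23.1% ± 7.0 of the transcripts of both enzymes in WT and 47.2% ± 12.3 in p52Ki (SD, n = 4 and 5), and 18.3% and 40.1% when the longest transcript was taken as the length.

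Relative to S phase genes Ezh2 was higher in p52Ki, though its own mean CPM was not. Any gene that falls less than that list rises against it, so this ratio shows nothing particular to Ezh2. Against the mean log2 CPM of those 24 genes, its log2 ratio was -1.985 to -1.004 in WT and -0.97 to -0.41 in p52Ki, so that all 5 p52Ki libraries lay above all WT libraries (difference 0.66, exact permutation p = 0.00794, adjusted 0.0185 over 14 ratios). Of the S phase genes 17 of 24 fell (background 4.04% of all genes tested), or 1 of 24 with the replicate number as a block. The median change of the list was -0.95 on the log2 scale. Calls of S phase genes numbered 9, 10 and 11 without WT replicate 1, 3 and 4, and 10 and 11 without p52Ki replicate 3 and 5. For Suz12 and Eed the same ratio differed by 0.52 and 0.25 and did not pass (exact permutation p = 0.0317 and 0.452, adjusted 0.0635 and 0.633).

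Eed, the subunit that binds the methylated histone (chromosome 7, 89954654 to 89980983, minus strand), stood at 77.3, 131, 112 and 146 CPM in WT and at 75.8, 63.5, 73.0, 71.2 and 53.7 CPM in p52Ki. The lowest WT library, replicate 1, was just above the highest p52Ki library, and the other WT libraries were far above. Mean Eed fell from 116 ± 29.6 CPM in WT to 67.4 ± 8.95 CPM in p52Ki, by log2 -0.79 ± 0.21 (edgeR adjusted p = 0.0373). Its call was kept without WT replicate 1 and ended without any other single library (edgeR adjusted p of 0.0614 to 0.12), and it also ended with no filter on low counts (0.0592). The non-coding E230029C05Rik overlaps 6.82% of the exonic length of Eed on the opposite strand, where the unstranded reads cannot be assigned, and held 37 counts over the 9 libraries against 5468 for Eed. Gm26625 overlaps 2.61% of the exons of Ezh2 in the same way, with 881 counts against 5108, and Gm26563 3.6% of those of Suz12, with 362 against 3213.

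Suz12, the scaffold of the complex (chromosome 11, 79993106 to 80034123, plus strand), was at 87.3, 54.1, 61.6 and 52 CPM in WT and at 32.1, 48.2, 48.0, 51.3 and 44.8 CPM in p52Ki. All p52Ki libraries were below all WT libraries, though WT replicate 4 and p52Ki replicate 4 were close together. The change was -0.51 ± 0.23 on the log2 scale, with a 95% interval from -1.02 to 0.00, which did not pass (edgeR adjusted p = 0.235). Ratios among the core genes, Ezh2 to Suz12, Ezh2 to Eed and Suz12 to Eed, differed by 0.14, 0.41 and 0.27 on the log2 scale and did not pass (exact permutation p = 0.722, 0.167 and 0.500). The first of these differences was -0.16 without WT replicate 1, the library in which Suz12 was highest and Ezh2 lowest among WT.

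The other PRC2 subunits, among them accessory ones that steer the complex to its sites, split in direction. Of 9 listed, 7 were tested, 3 fell (background 4.04% of all genes tested) and 1 rose (background 4.49%). Mtf2 and Phf19, alternative Polycomb-like subunits, fell from 268 ± 68.0 to 144 ± 27.9 CPM and from 161 ± 28.6 to 74.0 ± 33.3 CPM (log2 fold changes -0.90 and -1.12, edgeR adjusted p = 0.0193 and 0.0324). Rbbp7, a histone-binding subunit, fell from 611 ± 118 to 328 ± 103 CPM (-0.90, edgeR adjusted p = 0.0297). Jarid2, which belongs to the form of PRC2 without Polycomb-like subunits, rose, with 76.3, 33.5, 26.3 and 69.0 CPM in WT and 134, 117, 132, 71.5 and 127 CPM in p52Ki (log2 fold change 1.18 ± 0.33, edgeR adjusted p = 0.0466). Only p52Ki replicate 4 fell within the WT range. Aebp2, its partner in that form, was at 7.29 ± 6.01 and 11.2 ± 2.50 CPM (edgeR adjusted p = 0.643). Leaving out any of WT replicates 1 and 2 and p52Ki replicate 5 ended the call of Mtf2 (edgeR adjusted p up to 0.0587), and any of WT replicates 1, 3 and 4 and p52Ki replicates 1, 3 and 5 that of Rbbp7 (up to 0.0832). Phf19 kept its call only without p52Ki replicate 4 (up to 0.0880 elsewhere), and Jarid2 only without WT replicate 1 or p52Ki replicate 4 (up to 0.108 elsewhere). Corrected for GC content and length, Jarid2 was not called (log2 0.93, edgeR adjusted p = 0.0926).

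None of 19 genes tested of PRC1, which ubiquitinates histone H2A and in some of its forms binds the PRC2 mark, was called. Their median log2 fold change was 0.17, and the one of smallest p was Cbx7, a reader of the mark, at 64.6 ± 7.60 and 105 ± 34.2 CPM (log2 fold change 0.71, edgeR adjusted p = 0.111). It was called without p52Ki replicate 2 (edgeR adjusted p = 0.0433) and by DESeq2 (0.0462). Neither demethylase that removes the mark was called by edgeR with all libraries, and both were by DESeq2 (adjusted p = 0.0231 for Kdm6a and 0.0309 for Kdm6b). Kdm6a, a demethylase known as UTX, was at 101 ± 7.75 and 67.3 ± 9.73 CPM with no overlap between genotypes (-0.59 ± 0.17, edgeR adjusted p = 0.0589), and Kdm6b at 12.3 ± 6.52 and 33.5 ± 15.9 CPM (1.44 ± 0.50, edgeR adjusted p = 0.107). The correction for GC content and length gave Kdm6a a log2 fold change of -0.81 and a call (edgeR adjusted p = 0.00871).

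The RefSeq promoter windows of Ezh1 and Eed are shown because these PRC2 genes were called in opposite directions. Each holds 300 bases around the annotated start, 5′ to 3′ on the minus strand of GRCm38.p6 (chr11:101226414-101226713 for Ezh1 and chr7:89980927-89981226 for Eed), and the window given with Dnmt1 is built the same way. Capitals would mark matches on either strand to the ETS motif CCGGAAGT or the E2F motifs GGCGGGAA and TTTGGCGC, and neither of these windows holds one.
Ezh1: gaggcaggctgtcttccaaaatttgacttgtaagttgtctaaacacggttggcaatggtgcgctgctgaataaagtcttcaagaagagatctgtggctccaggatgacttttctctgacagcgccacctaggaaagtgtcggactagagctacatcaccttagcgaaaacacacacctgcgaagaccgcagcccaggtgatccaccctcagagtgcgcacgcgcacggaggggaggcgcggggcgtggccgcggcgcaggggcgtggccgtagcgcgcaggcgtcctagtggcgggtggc
Eed: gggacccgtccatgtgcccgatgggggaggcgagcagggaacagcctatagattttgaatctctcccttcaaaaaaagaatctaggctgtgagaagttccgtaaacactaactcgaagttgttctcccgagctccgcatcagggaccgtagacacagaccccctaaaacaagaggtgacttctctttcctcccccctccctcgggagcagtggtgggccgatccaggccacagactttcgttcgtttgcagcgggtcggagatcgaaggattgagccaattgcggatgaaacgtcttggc
Windows were given for 9 of the 10 genes. Of all 32851 windows, 3.89% hold CCGGAAGT, 2.19% GGCGGGAA and 0.514% TTTGGCGC, and among the 9 genes only TTTGGCGC was found, in windows of Ezh2 and Dnmt1. An NF-kB frame of GGG, then NNNNN, then CC, which can overlap the others, was found in 6 of the 9 genes, Ezh1, Eed and Dnmt1 among them, and in 50.8% of all windows. A gene is counted here if any of its windows matches, and Dnmt1 has several, so a share of genes is not a share of windows. A match is a run of letters and not a bound site.

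Kmt2d (chromosome 15, 98831669 to 98871204, minus strand), which has the most exonic sequence of the 10, was second in CPM to Dnmt1 in WT and first in p52Ki. The WT libraries had 488, 369, 288 and 339 CPM and those of p52Ki 674, 540, 532, 410 and 500 CPM. WT replicate 1 lay within the p52Ki range, and the other WT libraries lay below it. The log2 fold change of 0.52 ± 0.18 (95% interval 0.12 to 0.91) did not pass (edgeR adjusted p = 0.107), though DESeq2 called it (adjusted p = 0.0352), as did edgeR without WT replicate 1 (adjusted p = 0.0488). Corrected for GC content and length it was 0.19 (edgeR adjusted p = 0.553), or 0.38 above the median of all genes in that fit.

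Kdm6a and Kmt2c were set beside Kmt2d within each library. Kdm6a is a subunit of the KMT2D complex, and the log2 ratio of Kmt2d to Kdm6a was 1.36 to 2.38 in WT and 2.53 to 3.42 in p52Ki with no overlap (difference 1.12, exact permutation p = 0.00794, adjusted 0.0185 over 14 ratios). Kmt2c, its paralogue, had 85.9 ± 24.0 CPM in WT and 128 ± 34.7 CPM in p52Ki (edgeR adjusted p = 0.196), and the log2 ratio of Kmt2d to Kmt2c was 2.12 ± 0.28 in WT and 2.07 ± 0.35 in p52Ki (exact permutation p = 0.810). That difference of -0.05 became 0.08 without WT replicate 2 and 0.07 without p52Ki replicate 3. Of 12 genes of the KMT2 and SET1 complexes tested none was called. Setd1b had the smallest p, at 2.60 ± 2.47 and 14.1 ± 5.39 CPM (log2 fold change 2.43 ± 0.69, edgeR adjusted p = 0.0521, and 0.0177 without WT replicate 2). It was called with RLE size factors (edgeR adjusted p = 0.0492), with the correction for GC content and length (0.0368), by DESeq2 (0.00337) and by limma-trend (0.0170). None of 5 H3K4 demethylase and CoREST genes was called, and Rcor1 had the smallest p (-0.63 ± 0.29, edgeR adjusted p = 0.237).

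Neither acetyltransferase passed the threshold, and their genotypes overlapped. Crebbp (chromosome 16, 4081328 to 4213997, minus strand) was at 173, 130, 116 and 129 CPM in WT and at 227, 143, 151, 123 and 163 CPM in p52Ki. Replicate 1 was the highest library of each genotype, as for Kmt2d. The difference was log2 0.24 ± 0.20 (95% interval -0.20 to 0.67, edgeR adjusted p = 0.559). Ep300 (chromosome 15, 81585351 to 81652077, plus strand) was at 63.3, 108, 67.5 and 34.2 CPM in WT and at 87.4, 41.6, 88.7, 62.5 and 91.5 CPM in p52Ki. WT replicates 2 and 4 were its highest and lowest values of all 9 libraries. The difference was log2 0.12 ± 0.33 (95% interval -0.59 to 0.84, edgeR adjusted p = 0.887), and was -0.08 without WT replicate 4. In the fit corrected for GC content and length both signs turned, to -0.04 for Crebbp and -0.13 for Ep300, which lay 0.16 and 0.06 above the median of all genes there.

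Crebbp made up 68.6% ± 10.6 of the transcripts of these paralogues per exon length in WT and 69.7% ± 5.92 in p52Ki (SD, n = 4 and 5). The log2 ratio of their CPM differed by 0.05 (exact permutation p = 0.913), a value that turned negative when WT replicate 2, WT replicate 3, p52Ki replicate 1 or p52Ki replicate 2 was left out, reaching -0.23. Among 7 other acetyltransferases tested, 1 rose (background 4.49% of all genes tested) and none fell. Kat6b had 3, 29, 4 and 4 counts in WT and 110, 163, 98, 61 and 66 counts in p52Ki, or 1.38 ± 1.76 and 16.9 ± 7.18 CPM (log2 fold change 3.6 ± 0.80, edgeR adjusted p = 0.0186). WT replicate 2 held most of the WT counts, and the genotypes did not overlap.

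Hdac3 (chromosome 18, 37935844 to 37955016, minus strand) differed least among the genes with a negative fold change. It was at 139, 104, 152 and 158 CPM in WT and at 94.1, 134, 150, 146 and 98.0 CPM in p52Ki, with WT replicate 2 and p52Ki replicates 1 and 5 low. It changed by log2 -0.15 ± 0.20 (95% interval -0.59 to 0.28, edgeR adjusted p = 0.742). Mean CPM of its corepressor partner Ncor1 was 167 ± 37.5 for WT and 197 ± 28.5 for p52Ki (edgeR adjusted p = 0.497). Of 16 deacetylase and corepressor genes tested, 2 fell (background 4.04% of all genes tested) and none rose. Hdac1, a deacetylase of the SIN3 and NuRD complexes, fell from 438 ± 22.4 to 260 ± 38.6 CPM (-0.75 ± 0.13, edgeR adjusted p = 0.00737), and Sin3a, the scaffold that holds it, from 136 ± 36.1 to 72.7 ± 13.2 CPM (-0.91 ± 0.21, edgeR adjusted p = 0.0230). Hdac1 kept its call without any single library, and Sin3a lost it when WT replicate 1, WT replicate 3, p52Ki replicate 2 or p52Ki replicate 5 was left out (edgeR adjusted p up to 0.0703).

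Dnmt1 (chromosome 9, 20907209 to 20959888, minus strand) had the highest CPM of the 10 genes in WT and the largest fall. The WT libraries had 789, 610, 706 and 710 CPM and those of p52Ki 190, 319, 257, 440 and 157 CPM. The lowest WT library was above the highest p52Ki library, replicate 4, and p52Ki libraries varied more among themselves (coefficient of variation 41.3% against 10.4%). Dnmt1 fell from a mean of 704 ± 73.3 CPM to one of 272 ± 113 CPM (SD, n = 4 and 5), by log2 -1.37 ± 0.26 (edgeR adjusted p = 0.00906). The call held without each single library, at log2 fold changes of -1.58 to -1.20 and edgeR adjusted p of 0.00170 to 0.0279.

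The order of the p52Ki libraries in Dnmt1 resembled that in the S phase genes, whose summed CPM was 2917, 4836, 3786, 6199 and 3326 in p52Ki replicates 1 to 5. Relative to the mean log2 CPM of those genes, the log2 ratio of Dnmt1 was 1.49, 1.43, 1.58 and 1.47 in WT and 1.10, 1.11, 1.19, 1.23 and 0.60 in p52Ki. Every p52Ki library was below every WT library, with replicate 5 far below the rest (difference -0.45, exact permutation p = 0.00794, adjusted 0.0185 over 14 ratios). The S phase genes themselves ranged in log2 fold change from -1.64 for Pola1 to -0.08 for Rpa2. Dnmt1, at -1.37, lay within that range, so the ratio to their mean does not place it beyond these genes. Pola1 was also the transcript most like Dnmt1 over the libraries (Pearson r 0.997). Uhrf1, which brings DNMT1 to half-methylated DNA, fell from 421 ± 90.7 to 222 ± 66.8 CPM (-0.92 ± 0.22, edgeR adjusted p = 0.0255), a call kept only without WT replicate 3 or p52Ki replicate 4 (up to 0.0754 elsewhere). The log2 ratio of Dnmt1 to Uhrf1 differed by -0.51 and did not pass (exact permutation p = 0.0397, adjusted 0.0694).

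Of the windows given for the 3 annotated starts of Dnmt1, the one at chr9:20952574-20952873 (minus strand, GRCm38.p6) is shown because it holds TTTGGCGC, in capitals, 33 bases past that start.
Dnmt1: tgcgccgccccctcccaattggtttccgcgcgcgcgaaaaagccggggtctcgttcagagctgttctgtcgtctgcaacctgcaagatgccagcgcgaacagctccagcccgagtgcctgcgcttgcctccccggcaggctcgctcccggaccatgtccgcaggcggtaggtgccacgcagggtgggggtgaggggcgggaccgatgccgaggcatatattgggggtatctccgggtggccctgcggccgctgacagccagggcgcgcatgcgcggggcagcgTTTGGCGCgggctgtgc
The other two windows of Dnmt1 hold none of the 3 short motifs. The counts per gene do not tell which start was used.

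Tet2 (chromosome 3, 133463679 to 133545139, minus strand) had the lowest level and the largest log2 fold change of the 10 genes, yet did not pass. It had 16, 120, 101 and 71 counts in WT replicates 1 to 4, or 2.1, 16.6, 14.4 and 9.42 CPM, and 344, 192, 189, 161 and 128 counts in p52Ki replicates 1 to 5, or 49.9, 33.9, 30.5, 24.7 and 27.8 CPM. Every p52Ki library was above every WT library, and WT replicate 1 was far below the other WT libraries. It changed by log2 1.65 ± 0.51 (95% interval 0.54 to 2.76, edgeR adjusted p = 0.0698) and 1.31 without WT replicate 1 (edgeR adjusted p = 0.0620). Tet2 passed in DESeq2 (adjusted p = 0.0102), limma-voom (0.0443), limma-trend on the deposited values (0.0344) and edgeR on genes with at least 10 CPM in 4 libraries (0.0422).

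Tet3, the related enzyme, was at 51.8 ± 22.6 and 52.1 ± 13.0 CPM, and Tet1 was too low to be tested. The log2 ratio of Tet2 to Tet3 was -4.98, -1.38, -2.13 and -1.34 in WT and -0.21, -0.46, -1.23, -0.69 and -0.65 in p52Ki. The difference of 1.81 passed (exact permutation p = 0.00794, adjusted 0.0185 over 14 ratios), and it was 0.97 without WT replicate 1 (adjusted 0.0625). The log2 ratio of Dnmt1 to Tet2 was 5.17 to 8.36 in WT and 1.92 to 4.14 in p52Ki, a difference of -3.36 (exact permutation p = 0.00794, adjusted 0.0185). Dnmt1 lay below and Tet2 above every WT library, so the separation of this ratio was bound to follow. Its pass adds nothing to the results on each gene. Without 1 library fewer splits are possible, with a smallest exact p of 0.0179 or 0.0286, and the 6 ratios that passed with all libraries kept their sign in each such comparison but passed only without WT replicate 2.

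Among 9 further genes of DNA methylation tested, 3 fell (background 4.04% of all genes tested) and 1 rose (background 4.49%). Dnmt3a, which sets methylation on unmethylated DNA, rose from 9.45, 24.4, 17.1 and 15.7 CPM in WT to 43.6, 84.7, 62.5, 48.3 and 33.2 CPM in p52Ki (log2 fold change 1.71 ± 0.36, edgeR adjusted p = 0.0148), with no overlap. Dnmt3b was at 5.30 ± 6.33 and 10.4 ± 6.57 CPM (edgeR adjusted p = 0.739). Mbd4, a glycosylase that repairs mismatches at methylated sites, fell from 312 ± 29.9 to 130 ± 38.9 CPM, and Mbd2, a reader of methylated DNA, from 117 ± 25.0 to 49.5 ± 7.56 CPM (log2 fold changes -1.25 and -1.23, edgeR adjusted p = 0.00560 and 0.00508). Dnmt3a, Mbd4, Mbd2 and Kat6b kept their calls without each single library. Of 11 SWI/SNF remodelling genes 1 fell (background 4.04%). It was the ATPase Smarca4 (BRG1), from 633 ± 104 to 431 ± 55.6 CPM (-0.55 ± 0.15, edgeR adjusted p = 0.0374). Its call was kept only without WT replicate 3 or p52Ki replicate 4 (edgeR adjusted p up to 0.116 elsewhere), and was lost with no filter on low counts (0.0621).

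**Figure D3:**
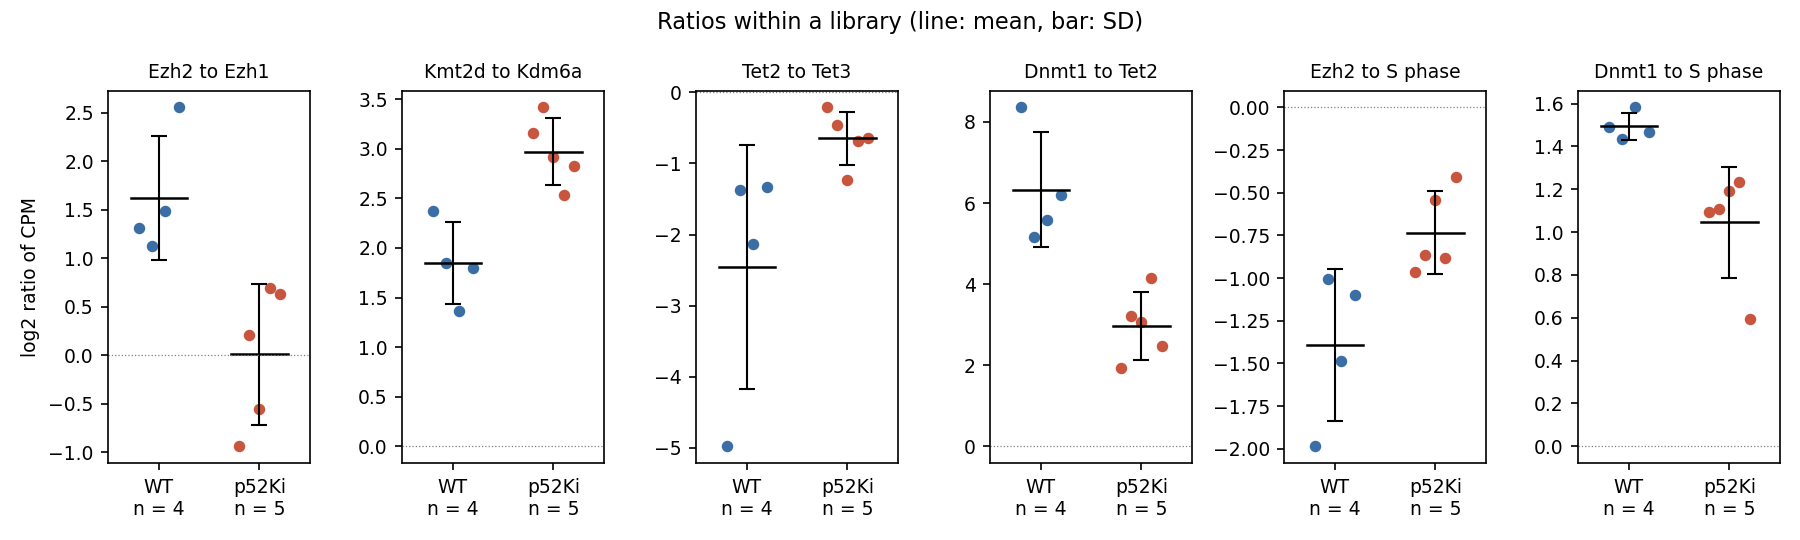
Log2 ratio of CPM within each library for the 6 of 14 gene pairs that passed an adjusted p of 0.05, with WT (n = 4) and p52Ki (n = 5) libraries as points, lines for means and bars for SD; S phase is the mean log2 CPM of 24 genes. In each panel the genotypes do not overlap, with Ezh2 to Ezh1 at 1.13 to 2.56 in WT and -0.94 to 0.69 in p52Ki. For Dnmt1 to Tet2 this follows from the separation of each gene by itself.

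Over the 9 lists of other chromatin genes, 88 of 93 were tested. Of these, 3 rose (background 4.49% of all genes tested) and 9 fell (background 4.04%). The median of their log2 fold changes was -0.03, and that of all genes 0.03. Leaving out 1 library gave 3 falls for p52Ki replicate 5, 4 for WT replicate 1, 5 for each of WT replicates 2 and 4 and p52Ki replicates 1, 2 and 3, 6 for WT replicate 3 and 9 for p52Ki replicate 4. The 12 calls lay in 5 of the lists: other PRC2 subunits, other acetyltransferases, deacetylases and corepressors, DNA methylation and SWI/SNF.

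**Figure D4:**
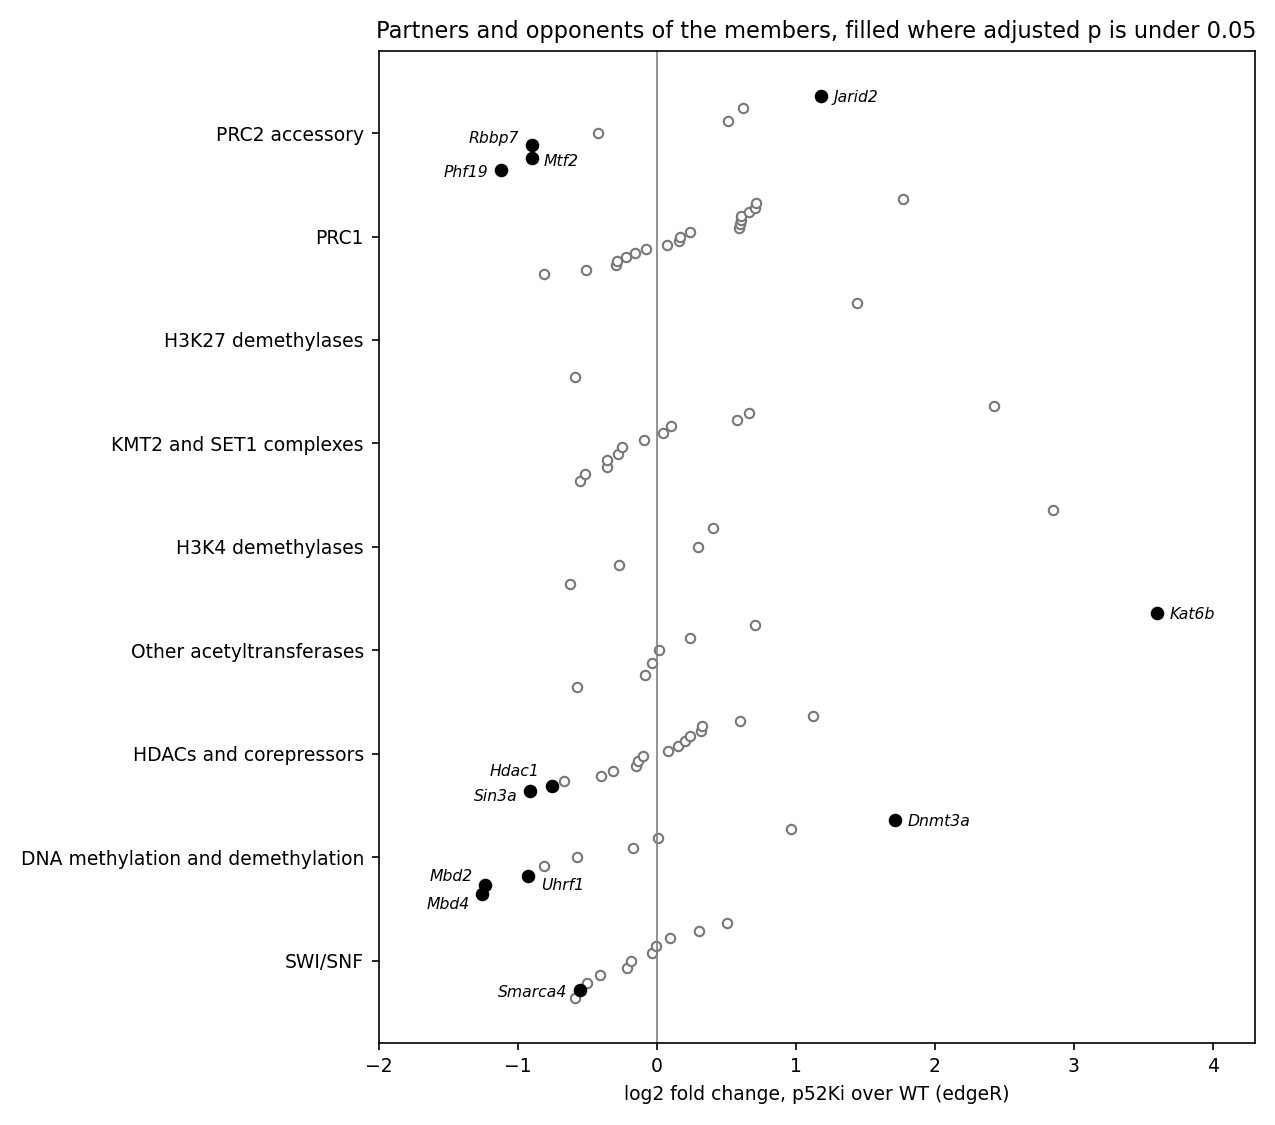
Log2 fold change of p52Ki over WT in edgeR for 88 genes in 9 lists of other chromatin regulators, sorted by value within each list; filled and named where the adjusted p was under 0.05. The 9 named genes that fell lie between -1.25 and -0.55, and Jarid2, Dnmt3a and Kat6b lie at 1.18, 1.71 and 3.6.

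Per kilobase of exon the order of the 10 genes changed between the genotypes. In WT, Dnmt1 led at 95.4 ± 9.94 CPM per kb, followed by Hdac3 at 34.1 ± 5.96, Eed at 30.4 ± 7.73, Kmt2d at 18.6 ± 4.26, Ezh2 at 14.5 ± 3.45, Suz12 at 12.9 ± 3.28, Crebbp at 10.1 ± 1.85, Ep300 at 4.78 ± 2.11, Ezh1 at 4.34 ± 1.78 and Tet2 at 0.630 ± 0.381 (SD, n = 4). The ranges of Dnmt1 and Hdac3, of Crebbp and Ep300, and of Ezh1 and Tet2 did not overlap, and those of the other neighbours in this order did. In p52Ki the order was Dnmt1 at 36.9 ± 15.3, Hdac3 at 30.7 ± 6.60, Kmt2d at 26.6 ± 4.77, Eed at 17.6 ± 2.34, Crebbp at 11.9 ± 2.91, Ezh2 at 11.4 ± 3.01, Ezh1 at 10.3 ± 3.25, Suz12 at 9.07 ± 1.52, Ep300 at 5.21 ± 1.52 and Tet2 at 1.98 ± 0.585 CPM per kb (SD, n = 5). There the ranges of Kmt2d and Eed and of Suz12 and Ep300 did not overlap, and those of the other neighbours did, Dnmt1 and Hdac3 as well as Ep300 and Tet2 among them. The highest Eed library, at 19.8 CPM per kb, was under the lowest of Kmt2d, at 20.6. With the longest transcript as the length, Dnmt1 stayed first and Tet2 last in both genotypes, and other ranks changed. In p52Ki Ezh2 went from rank 6 to 4, Kmt2d from 3 to 5 and Crebbp from 5 to 7, and in WT Eed, Ezh2 and Ezh1 each rose by 1 place past Hdac3, Kmt2d and Ep300.

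**Figure D5:**
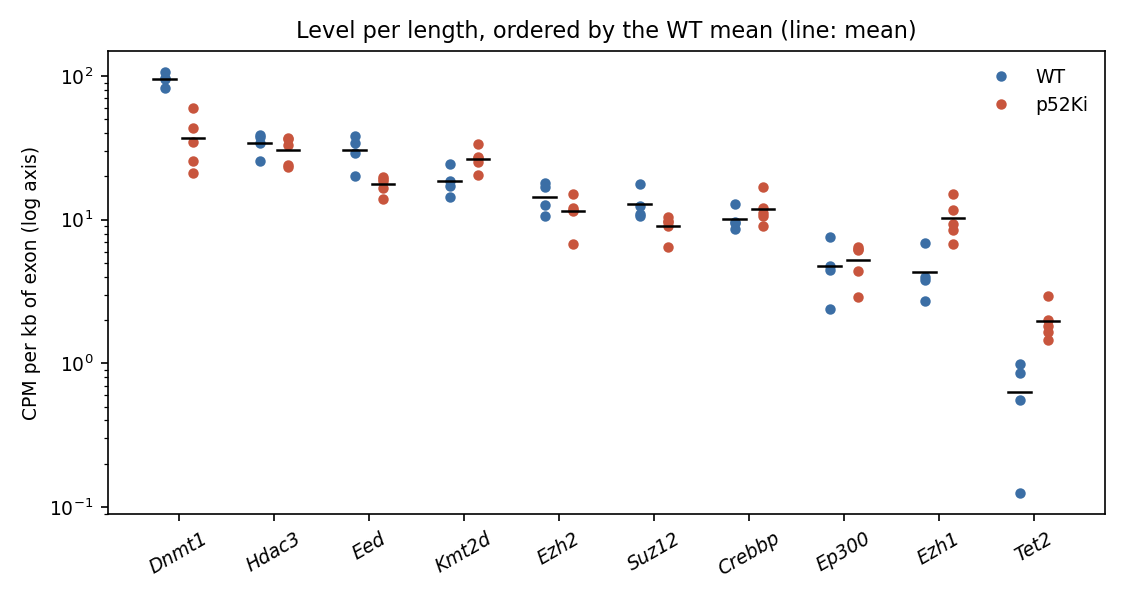
CPM per kilobase of merged exon on a log axis for the 10 genes, ordered by the WT mean, with each library as a point and the mean as a line. Dnmt1 leads with 95.4 in WT and 36.9 in p52Ki, and Tet2 is lowest with 0.630 and 1.98.

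The transcripts whose log2 CPM ran most like each gene over the 9 libraries were Pola1, Ppil1 and Hmgb1 for Dnmt1 (Pearson r 0.997, 0.992 and 0.989) and Cmpk2, 2610001J05Rik and Cdk8 for Tet2 (0.993, 0.971 and 0.969). For Ezh1 they were Sfxn3, Morc3 and Junb (0.972, 0.971 and 0.967), for Ezh2 Acsl4, Sapcd2 and Nudc (0.948, 0.942 and 0.924), for Eed Uba3, Opa1 and Kif2a (0.948, 0.939 and 0.938) and for Suz12 Dync1h1, Gm45760 and Arf1 (0.963, 0.957 and 0.949). Those of Kmt2d were Mysm1, Ilvbl and Klhl24 (0.961, 0.960 and 0.947), of Crebbp Dedd, Tm6sf1 and Ppp2r5b (0.953, 0.895 and 0.887), of Ep300 Zc3h3, N4bp2 and Zfp282 (0.959, 0.956 and 0.947), and of Hdac3 Zgrf1, Cenpu and Setdb1 (0.942, 0.913 and 0.900). The libraries share their genotype, so r describes the difference between genotypes as well as the order within each, and these are the highest values found in a search over all genes of sufficient level. For Tet2, WT replicate 1 had 16 counts and a log2 CPM of 1.27, against 3.28 to 5.65 in the other libraries. The weight of that library in r was not tested.

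Of 13 genes known as targets of these enzymes in B cells, 12 were tested. Among these 12, 1 was called, beside 8.53% of all genes tested. It was Irf4, a factor of activated and plasma cells that PRC2 is known to silence. Its level was higher in p52Ki, at 149 ± 42.5 CPM against 34.6 ± 8.37 CPM in WT (edgeR adjusted p = 0.00172). Prdm1 and Cdkn1a, silenced likewise, were at 7.40 ± 4.67 and 8.18 ± 6.78 CPM, and at 1.09 ± 0.775 and 3.13 ± 1.29 CPM (edgeR adjusted p = 0.963 and 0.456). H2-Aa, H2-Ab1 and H2-Eb1, class II genes on which CREBBP and HDAC3 act in opposite ways, had log2 fold changes of -0.48, -0.43 and -0.47 (edgeR adjusted p = 0.0879, 0.104 and 0.0898). Ciita, Tnfrsf14, Tnfaip3, Cd74, Socs3 and Traf3, the rest of the tested genes, did not pass either (edgeR adjusted p of 0.303 to 0.903). The part of PRC2 in the level of Irf4 was not tested.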

How the data were processed

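RNA of 4 WT and 5 p52Ki libraries was read by SMART-Seq v2 cDNA and Nextera XT, per the labels' protocols, a method without strand information or molecular identifiers. The tools named in the submitters' processing notes are featureCounts from Subread 1.6.2, HISAT2 2.1.0 and SAMtools 1.8, with the build GRCm38. The annotation release, strand setting and read filters are not given in these sources. The authors deposited raw counts for 55536 genes and log2 CPM values for 12849 genes. The deposited log2 values equalled edgeR's log CPM (TMM, prior count 2) within 4.97e-14.

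The counts were tested in R 4.3.3 with edgeR 4.0.16 (filterByExpr, TMM, robust quasi-likelihood F test, no covariate, all 9 libraries), with Benjamini-Hochberg adjustment over 12849 genes and a threshold of 0.05. Each standard error is the size of the log2 fold change divided by the root of its F. CPM levels use library sizes scaled by TMM. Ratios within a library used log2 CPM with a prior count of 2 and an exact two-sided permutation of the genotype labels, adjusted over 14 ratios. Lengths and positions are from GENCODE M21 (GRCm38), which held all 55536 identifiers under the deposited names. Alternatives included limma 3.58.1 and DESeq2 1.42.0, and the correction for GC content and length used splines with 5 degrees of freedom as offsets. On simulated counts (12171 genes tested) 13.5% of 2-fold and 57.8% of 4-fold changes were recovered, with 2.99% of calls false. No pair of libraries of a genotype agreed within sampling noise.

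The members and gene lists were chosen with earlier results of these data known. Every member was named whatever its result, with the genes of the 14 ratios, up to 4 called genes or else the gene of smallest p in each list, and the 3 genes of highest Pearson r with each member, for genes whose log2 CPM averaged 3 or more. Ncor1, Aebp2, Dnmt3b, Tet1 and the targets other than Irf4 were named after their values were seen. Some results are not reported here.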

Additional observations from a re-analysis of the deposited data

Results flagged for a closer look

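Of 48 sets of 4 or 5 libraries examined (10 genes and 14 ratios in 2 genotypes), 1 held a library standing apart from the rest, where chance alone gives about 1 in 20. The log2 ratio of Dnmt1 to the mean of 24 S phase genes was 0.60 in p52Ki replicate 5, against 1.10 to 1.23 in the other p52Ki libraries, a gap of 0.784 of the group's range where the 95% critical value is 0.71. That library also had the lowest total count, 4492160, and its Dnmt1 value rests on 722 counts. The part of depth in this value was not tested.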

How the results depend on the processing

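All counts here are at an adjusted p under 0.05. Replicate numbers did not pair the genotypes: the deviations of same-numbered libraries correlated at -0.04 to -0.01. A block on that number leaves fewer residual degrees of freedom. Under it p52Ki replicate 5, which has no WT library of its number, adds nothing on genotype. A call lost under the block therefore does not show an effect of pairing. With the replicate block edgeR called 129 genes (97 higher, 32 lower), of the 10 members 0 (0 higher, 0 lower), of the related chromatin genes 1 higher and 1 lower, and of the S phase genes 1 lower. Under that block the adjusted p was 0.0770 for Ezh1, 0.190 for Eed and 0.0558 for Dnmt1. With the block and the GC content and length correction together 512 genes were called, 146 of them higher, and 1 member, with 0 higher and 1 lower, and 11 S phase genes lower. The correction alone gave 1704 genes, 1244 lower, with 14 related genes lower. It turned Crebbp to -0.0377, Ep300 to -0.13 and Tet3 to -0.33 (with the block -0.10, -0.21 and -0.20). DESeq2 called 1766 genes (995 higher), 5 members (3 higher) and 7 related genes higher. With no filter on low counts 1 member was lower. With at least 10 CPM in 4 libraries, limma-voom and limma-trend 2 members each were higher, and limma-trend had 5 related genes higher. With the longest transcript as length, the levels over all libraries were 30.7 CPM per kb for Ezh2, 13.5 for Ezh1, 43.2 for Eed, 7.48 for Ep300, 79.1 for Dnmt1 and 2.53 for Tet2. The cause of these shifts was not tested. Leaving out 1 library at a time gave 625 to 1108 genes (344 to 551 higher, 262 to 557 lower), 1 to 3 members (0 to 1 higher, 1 to 2 lower), 2 to 4 related genes higher and 3 to 9 lower, 9 to 19 S phase genes lower and 3 to 5 members without overlap. Ep300 ranged from -0.0754 to 0.434 and Tet3 from -0.205 to 0.244 on the log2 scale. The differences in log2 ratio then ranged from -1.78 to -1.303 for Ezh2 to Ezh1, 0.963 to 1.3 for Kmt2d to Kdm6a, 0.97 to 2.18 for Tet2 to Tet3, -3.75 to -2.68 for Dnmt1 to Tet2, 0.46 to 0.79 for Ezh2 to S phase and -0.50 to -0.34 for Dnmt1 to S phase. Fewer splits raise the smallest exact permutation p from 0.00794 to 0.0179 without a WT library and 0.0286 without a p52Ki library. A lost pass therefore cannot tell whether a ratio rests on the library left out. The 6 ratios above passed only without WT replicate 2 (exact permutation, adjusted p 0.0357, elsewhere 0.05 to 0.107). Those that did not pass ranged from -0.16 to 0.34 for Ezh2 to Suz12, 0.31 to 0.63 for Ezh2 to Eed, 0.06 to 0.61 for Suz12 to Eed, -0.23 to 0.31 for Crebbp to Ep300, -0.148 to 0.0762 for Kmt2d to Kmt2c, -0.63 to -0.38 for Dnmt1 to Uhrf1, which passed without WT replicate 2, 0.42 to 0.62 for Suz12 to S phase and 0.01 to 0.38 for Eed to S phase. A prior count of 0.5 changed no call of a ratio. Total counts of 4492160 to 7937579 limit the low genes most, Tet2 with 16 to 344 counts among the members.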
